A study of Homo sapiens with 8 samples.

Results

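Receptor tyrosine kinases and the pathways they drive were followed through m6A MeRIP-seq of cells with and without CSTF2. The genes were chosen by name: 55 genes of receptor, RAS and MAPK, PI3K and mTOR signalling and their inhibitors were looked up in the gene name columns of the deposited table. Of these, 51 were listed for HUH7 among 10447 genes, and 27 were listed for PLC/PRF/5 among 5477 genes, where they held 50 of 9516 rows. All 27 were also listed for HUH7, and AXL, NF1, MAPK3 and TSC2 were listed for neither line and are not analysed here.

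The study used 2 human cell lines established from hepatocellular carcinoma. HUH7 was represented by parental cells and by cells in which CRISPR-Cas9 had been used to knock out CSTF2, and PLC/PRF/5 by the same pair. CSTF2 encodes the RNA-binding subunit of the cleavage stimulation factor, which acts at the 3′ end of mRNAs. Each genotype gave 1 immunoprecipitate with an antibody against N6-methyladenosine (m6A) and 1 input library, 8 libraries in all, and whether a knockout line was a clone or a pool is not given in the sources used here. With 1 library per group no value below has a replicate, and no test was made.

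Receptor tyrosine kinases bind growth factors at the cell surface and signal through adaptors and exchange factors to RAS, which starts the RAF, MEK and ERK kinase cascade. In parallel, PI3K makes a membrane lipid that recruits AKT, and AKT relieves the growth kinase mTOR of its restraint by the TSC complex. Sprouty and Spred proteins and the DUSP phosphatases dampen ERK signalling, and many of them are made in response to it. In liver cancer cells the FGF19, FGFR4 and KLB axis, MET and the IGF axis are well-known growth inputs.

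The m6A mark is placed within a short consensus of which GGACU is the best-known form, written with T in DNA. The first 50 transcribed bases of 47 members, from 76 annotated starts, were searched in the RefSeq promoter table of GRCh38.p14 for GGAC followed by A, C or T on the transcript strand. A match was found in 11 members (23.4%), against 17.5% of all 27305 genes of that table, and on the opposite strand in 10 members (21.3%), against 17.1% of all genes. A gene was counted if any of its starts had a match. The 27305 genes had 35116 starts, fewer per gene than the members, so more sequence was searched per member and the shares are not directly comparable. The windows below hold 10 bases on either side of the match, which is in capitals, in the order of the roles in the pathway. They are shown because the start of the transcript is the part of the members' RNA that the tables used here hold, and they let the letters of the consensus be seen beside the values. Each line says whether the annotated start is the outermost 5′ end of the gene or lies inside it; the internal starts of EGFR and PIK3R1 lie 90822 and 74908 bases from that end, and those of AKT1 and TSC1 2147 and 762 bases. FGFR4, MAP2K2 and SPRY2 also had a match, too close to an end of the searched stretch for a full window, and NF1 had 1 but is listed for neither line.

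EGFR, chr7:55109840-55109864, plus strand, internal start: gttctccactGGACTtcagaacaag
PDGFRB, chr5:150155800-150155824, minus strand, outermost start: gccctatctgGGACCcaggatcgct
IRS2, chr13:109786550-109786574, minus strand, outermost start: tgtgcggcggGGACCgcgacgagcc
PIK3R1, chr5:68290672-68290696, plus strand, internal start: aaagaaagccGGACTcttttcttat
AKT1, chr14:104795724-104795748, minus strand, outermost start: ggcggcggcaGGACCgagcgcggca
AKT1, chr14:104793563-104793587, minus strand, internal start: taaccaccctGGACTgggtgctcct
TSC1, chr9:132944567-132944591, minus strand, internal start: taggctggagGGACTgtgaggtaaa
MTOR, chr1:11262523-11262547, minus strand, outermost start: ccggcttagaGGACAgcggggaagg

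Of the 11 members with a match, 10 were listed for HUH7, 5 with a positive and 5 with a negative value, and PDGFRB and TSC1 were the 2 with a size of 1 or more. Of all HUH7 genes, 60.8% were positive and 36.9% had a size of 1 or more. The values of these 10 genes went both ways, as did those of the whole column. A match is no site of the mark, and peak positions were not analysed here, so no value below can be tied to one of these windows.

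All values are log2 fold changes as deposited, 1 per gene in HUH7 and 1 or more rows per gene in PLC/PRF/5. Which genotype is the numerator is not given in the sources used here, so signs are reported as positive or negative without saying which genotype was higher. A size of 1, a doubling or halving, is used below to separate large from small values. CSTF2 was not listed for HUH7 and had 1 row in PLC/PRF/5, at -0.50 in the authors' deposited table, which is no check of the knockout. Of 13 hepatocyte markers, 9 were listed for HUH7 and 10 for PLC/PRF/5, without AFP or TTR in either line, and of 12 markers of other cell types 7 and 3 were listed. The table gives differences and no levels, so the cell type could not be checked further.

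In HUH7 most pathway genes had small values, and the few large ones were spread over receptors, RAS and MAPK parts, inhibitors and PI3K parts. A value above 0 was found for 35 of 51 members (68.6%), against 60.8% of all HUH7 genes. A value of 1 or more was found for 10 members (19.6%), against 22.2% of all genes, and of -1 or less for 6 members (11.8%), against 14.6%. Both shares were near those of the whole column, and the members' median of 0.23 lay close to the median of all genes, 0.20. The large positive values belonged to BRAF, PIK3CD, SPRED2, SPRED1, PDGFRB, SHC1, MAPK14, NRAS, DUSP4 and FGFR1. The large negative ones belonged to PIK3R3, SOS2, FGFR2, ARAF, DEPTOR and TSC1. Just below the threshold lay AKT2 (0.98), INSR (0.96), MAP2K1 (0.96) and RPTOR (0.94) in the authors' deposited table, and just above it TSC1 (-1.22) and FGFR1 (1.54).

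**Figure D1:**
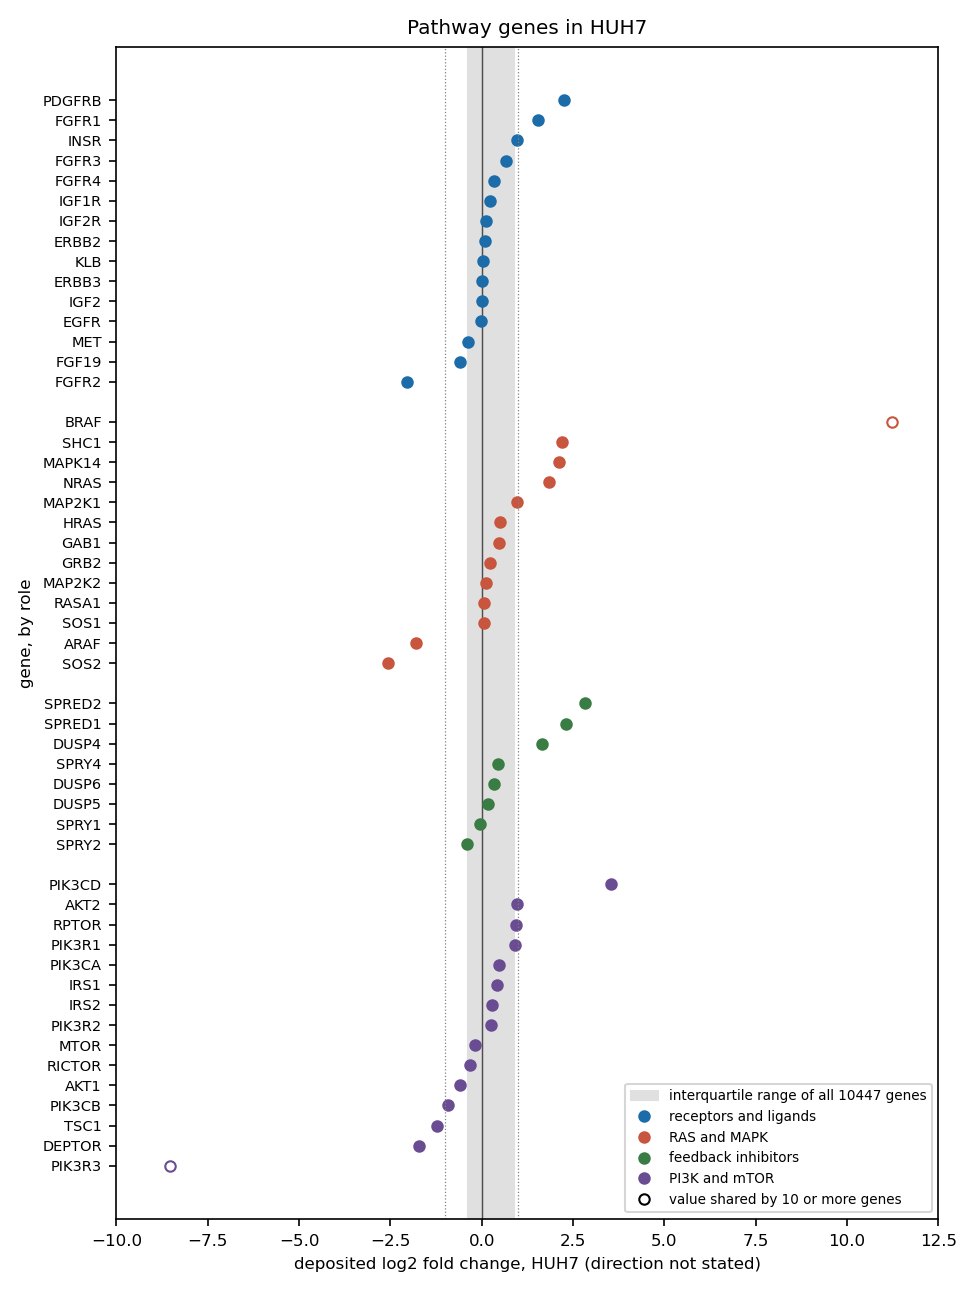
Deposited log2 fold change of each listed member in HUH7 (x axis, log2 scale), by role (y axis), with the interquartile range of all 10447 genes as a grey band and dotted lines at -1 and 1. Each point is 1 value without a replicate; most lie between the dotted lines, and the open points, BRAF at 11.24 and PIK3R3 at -8.53, are values that 10 or more genes share.

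Of the 15 receptors and ligands listed in HUH7, 10 were positive (66.7%, against 60.8% of all genes) and 5 negative. A size of 1 or more was found for 3 (20%, against 36.9% of all genes). The median was 0.09 (interquartile range -0.01 to 0.50), or -0.11 once the median of the column is subtracted and 0.23 without the ligands, KLB and IGF2R. Among the ERBB receptors, EGFR had -0.01, ERBB2, which has no known ligand of its own, had 0.09, and ERBB3, which signals through its partners, had 0.02 in the authors' deposited table. All 3 lay within 0.09 of 0. MET, the receptor of hepatocyte growth factor, had -0.39 in the authors' deposited table.

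The FGF receptors differed from one another. FGFR1 had 1.54 and FGFR2 had -2.06 in the authors' deposited table, a difference of 3.59 between the pair. FGFR3 had 0.66 and FGFR4, the main FGF receptor of hepatocytes, had 0.35 in the authors' deposited table. Around FGFR4 its ligand FGF19 had -0.59 and its co-receptor KLB had 0.03 in the authors' deposited table. The members of the liver FGF19 axis thus all stayed below 1 in size, while the large values of this family were those of FGFR1 and FGFR2.

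The insulin and IGF genes were small as well. INSR had 0.96 and IGF1R had 0.23 in the authors' deposited table. The ligand IGF2 had -0.00062 and IGF2R, which carries IGF2 to lysosomes and has no kinase, had 0.11 in the authors' deposited table. IGF2 shares its locus with the readthrough gene INS-IGF2, and how such reads were counted is not given in the sources used here. PDGFRB, the PDGF receptor of mesenchymal cells, had 2.26, at percentile 90.0 of all HUH7 genes and the highest value of this group in the authors' deposited table.

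Of the 13 RAS and MAPK parts listed in HUH7, 11 were positive (84.6%, against 60.8% of all genes) and 2 negative, with a median of 0.47. A size of 1 or more was found for 6 (46.2%, against 36.9% of all genes), or for 5 of 12 (41.7%, against 27.8%) without the shared values described below. The adaptors went one way, with SHC1 at 2.20, GAB1 at 0.47 and GRB2 at 0.23 in the authors' deposited table. SHC1 (chromosome 1, 154962298 to 154974376, GRCh38) had the largest value of these, a ratio of 4.59. Of the RAS exchange factors, SOS1 had 0.05 and SOS2 had -2.56 in the authors' deposited table, a difference of 2.62. SOS2 (chromosome 14, 50117130 to 50231882) lay at percentile 9.02 of all HUH7 genes.

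Both RAS genes were positive, NRAS at 1.84 and HRAS at 0.51 in the authors' deposited table. RASA1, a GTPase-activating protein that turns RAS off, had 0.06 in the authors' deposited table. Of the RAF kinases, ARAF had -1.80 and BRAF had 11.24 in the authors' deposited table. The MEK genes MAP2K1 and MAP2K2 had 0.96 and 0.10, and the p38 kinase gene MAPK14 had 2.12 in the authors' deposited table. Of the close relatives in this branch, SOS1 and SOS2 lay farther apart than the RAS pair (a difference of 1.33) and the MEK pair (0.85). ARAF minus BRAF was -13.0, the widest, through the BRAF value described next.

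The BRAF value was not its own. It was shared, to 6 decimals, by 61 HUH7 genes, and is the highest value of the column. In all, 1315 HUH7 genes (12.6%) held 1 of 16 values that 10 or more genes share, 8 positive from 9.50 to 11.24 and 8 negative from -9.27 to -7.53. The sizes, without the sign, were taken back from the log2 scale. For either sign the 8 results were 0.3, 0.4, 0.5, 0.6, 0.7, 0.8, 0.9 and 1 times the largest one, with a deviation of at most 5.66e-07. BRAF stood at 1 on the positive side. PIK3R3, at -8.53 in the authors' deposited table and shared by 108 genes, stood at 0.6 on the negative side. BRAF and PIK3R3 were the only 2 of the 51 listed members with such a value. How these values arose was not tested. They are counted below as large values and given on the log2 scale only, without a ratio.

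Of the 8 feedback inhibitors listed in HUH7, 6 were positive (75%, against 60.8% of all genes) and 2 negative, 3 were 1 or more and 0 were -1 or less (against 22.2% and 14.6% of all genes), with a median of 0.39 (interquartile range 0.11 to 1.82). The Spred genes, whose proteins hold back the activation of RAF, stood at the top, with SPRED2 at 2.82 and SPRED1 at 2.30 in the authors' deposited table. As ratios these were 7.05 and 4.93, and SPRED1 lay below SPRED2 by a difference of -0.52. SPRED2 (chromosome 2, 65307175 to 65432599) lay at percentile 92.0 and SPRED1 (chromosome 15, 38252836 to 38357249) at percentile 90.1 of all HUH7 genes.

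The other inhibitors were lower. DUSP4, a nuclear phosphatase of MAP kinases, had 1.66, and DUSP5 and the ERK phosphatase DUSP6 had 0.16 and 0.34 in the authors' deposited table. SPRY4 had 0.43, SPRY1 had -0.04 and SPRY2 had -0.41 in the authors' deposited table. The 3 Sprouty genes thus lay around 0, and both Spred genes above 2.

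Of the 15 PI3K and mTOR parts listed in HUH7, 8 were positive (53.3%, against 60.8% of all genes) and 7 negative, with a median of 0.24 (interquartile range -0.75 to 0.68) that turned to -0.18 without IRS1 and IRS2. A size of 1 or more was found for 4 (26.7%, against 36.9% of all genes), or for 3 of 14 (21.4%, against 27.8%) without the shared values. PIK3CD, the catalytic subunit best known from leukocytes, had 3.54, a ratio of 11.6, in the authors' deposited table. This was the largest value of the members outside the shared ones and lay at percentile 93.8 (chromosome 1, 9627258 to 9729114). The widely expressed catalytic subunits PIK3CA and PIK3CB had 0.46 and -0.91 in the authors' deposited table. Of the regulatory subunits, PIK3R1 had 0.90, PIK3R2 had 0.24 and PIK3R3 had -8.53 in the authors' deposited table. The insulin docking proteins IRS1 and IRS2 had 0.43 and 0.29 in the authors' deposited table.

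Downstream of PI3K most values were small or negative. AKT1 had -0.60 and AKT2 had 0.98 in the authors' deposited table, a difference of 1.58 between the kinases. TSC1, which restrains mTOR, had -1.22, and DEPTOR, an inhibitor that binds mTOR, had -1.73 in the authors' deposited table. MTOR itself had -0.18, the mTORC1 subunit gene RPTOR had 0.94 and the mTORC2 subunit gene RICTOR had -0.33 in the authors' deposited table. Of the 4 mTOR complex genes, 1 was positive and 3 were negative.

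**Figure D2:**
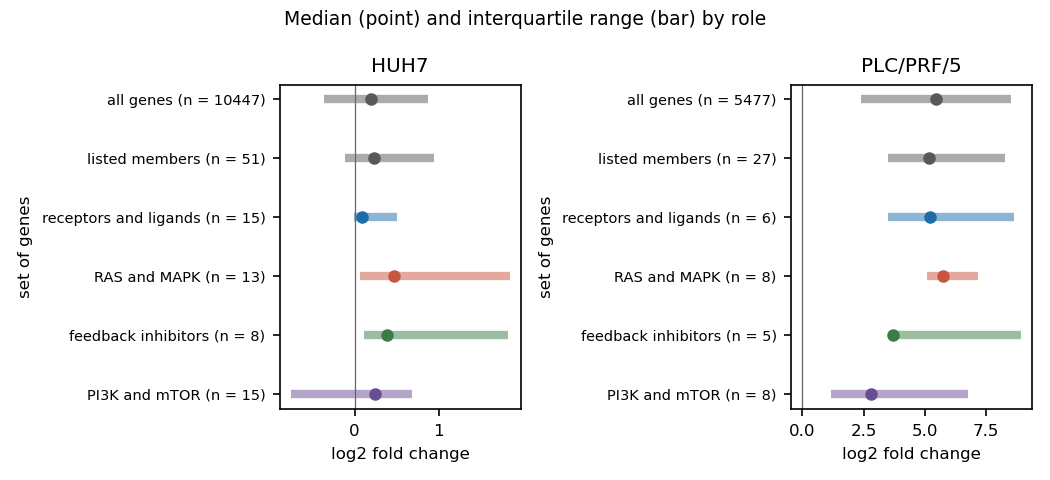
Median (point) and interquartile range (bar) of the deposited log2 fold changes (x axis) for all genes, the listed members and the 4 roles (y axis), in HUH7 (left) and, by gene median, in PLC/PRF/5 (right). In HUH7 the medians of the roles run from 0.09 to 0.47 beside 0.20 for all genes, and in PLC/PRF/5 from 2.82 to 5.74 beside 5.45 for all genes; the bars describe spread between genes, not between libraries.

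In PLC/PRF/5 the 27 listed pathway genes mostly had large positive values, as did most genes of the column. By the median of its rows, 25 of 27 members (92.6%) were above 0, against 90.3% of all genes. The same 25 were 1 or more, against 84.5% of all genes, and 0 were -1 or less, against 4.47%. The members' median was 5.16 and that of all genes 5.45. Once the column's median is subtracted, 10 members were 1 or more and 12 were -1 or less, and the medians of 3 of the 4 roles, all but RAS and MAPK, were below 0. The centred counts over all genes were not computed. The quartiles of all genes, 2.40 and 8.51, both lay more than 1 from their median, so large centred values of either sign were common in the column. The column itself was filled evenly from -2.12 to just under 13. The lowest, middle and highest parts of equal width held 33.0%, 33.5% and 33.5% of all rows, and 12, 21 and 17 of the 50 rows of the members. In HUH7, 93.7% of rows named a gene on the same chromosome as the row before, and in PLC/PRF/5 4.99% did. Whether a PLC/PRF/5 value belongs to the gene beside it was not tested, and the values below are a description of the rows as deposited.

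**Figure D3:**
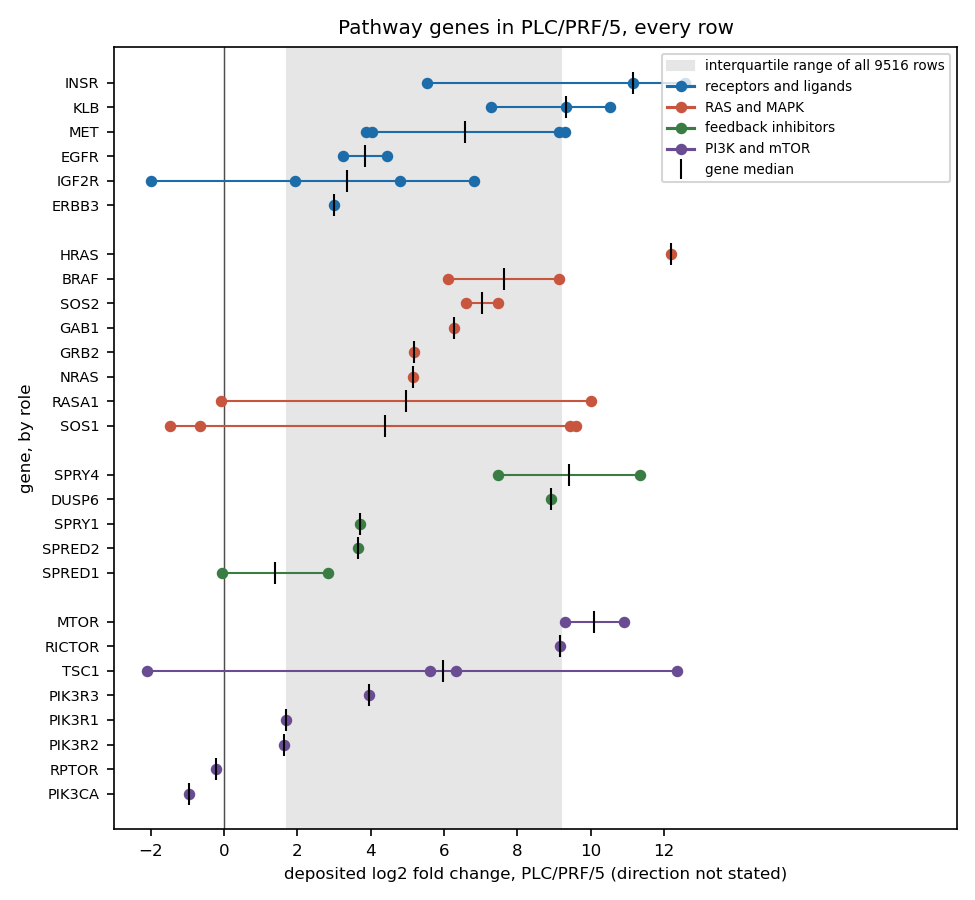
Every deposited PLC/PRF/5 row of the 27 listed members (points; x axis, log2 fold change), by gene and role (y axis), with a line from the lowest to the highest row, a tick at the gene median, and the interquartile range of all 9516 rows as a grey band. TSC1 spans -2.11 to 12.36, nearly the width of the whole column.

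Of the 51 members listed for HUH7, 27 (52.9%) were also listed for PLC/PRF/5, against 37.0% of all HUH7 genes. The receptors listed were EGFR, ERBB3, MET, KLB, INSR and IGF2R, and ERBB2, the FGF receptors, IGF1R, PDGFRB and both ligands were not. INSR had rows at 5.54, 11.17 and 12.58, and KLB at 7.29, 9.32 and 10.54 in the authors' deposited table. MET had 4 rows, at 3.87, 4.03, 9.15 and 9.30 in the authors' deposited table. EGFR had 3.24 and 4.45, and ERBB3 had 3.00 in the authors' deposited table. These receptor rows were all positive. IGF2R was the exception among receptors, with -2.01, 1.93, 4.79 and 6.82 in the authors' deposited table. In all, 16 of the 17 receptor rows were positive (94.1%), against 86.0% of all rows.

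Of the RAS and MAPK parts 8 were listed, with gene medians from 4.39 to 12.21. HRAS had 12.21 and NRAS had 5.16 in the authors' deposited table. The adaptors GAB1 and GRB2 had 6.28 and 5.19, and BRAF had 6.11 and 9.14 in the authors' deposited table. SOS2 had 6.60 and 7.47, while SOS1 had -1.48, -0.67, 9.44 and 9.60 in the authors' deposited table. RASA1 had -0.10 and 10.01 in the authors' deposited table. SOS1 and RASA1 thus held rows at both ends of the range, and their medians describe no row.

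The 5 listed inhibitors had a median of 3.69, beside 5.22 for the receptors and 5.74 for the RAS and MAPK parts. SPRY4 had 7.46 and 11.36, SPRY1 had 3.69 and DUSP6 had 8.93 in the authors' deposited table. SPRED1 had -0.05 and 2.82, and SPRED2 had 3.66 in the authors' deposited table. The PI3K and mTOR parts had a median of 2.82 over 8 genes, or 4.78 over their 12 rows, and the inhibitors had 3.69 over their 7 rows as well. PIK3R1, PIK3R2 and PIK3R3 had 1.70, 1.65 and 3.94, and PIK3CA had -0.96 in the authors' deposited table. MTOR had 9.30 and 10.90, RICTOR had 9.16 and RPTOR had -0.21 in the authors' deposited table. TSC1 had -2.11, 5.62, 6.33 and 12.36 in the authors' deposited table. PIK3CA and RPTOR were the only 2 listed members with no positive row.

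Rows of 1 gene lay a median of 3.89 apart, highest to lowest, over the 13 members with 2 or more rows, against 6.42 over the 2166 genes with several rows. Of these 13 members, 5 (IGF2R, SOS1, RASA1, SPRED1 and TSC1) had rows of both signs (38.5%), against 33.2% of those genes. The 4 members with 4 rows, MET, IGF2R, SOS1 and TSC1, had a median distance of 9.95 between the highest and lowest row, against 9.29 over the 204 genes with 4 rows. For the 2 members with 3 rows, KLB and INSR, it was 5.14, against 7.57 over 468 genes, and for the 7 members with 2 rows it was 2.87, against 4.35 over 1274 genes. SOS2 rows lay 0.87 apart and EGFR rows 1.21 apart, the closest of the members.

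The 27 members listed in both lines were set side by side gene by gene. By the PLC/PRF/5 median, 17 had the same sign in both lines (63.0%), all of them positive, against 56.9% of the 3866 genes listed in both. Of the other members, 8 were negative in HUH7 and positive in PLC/PRF/5, and PIK3CA and RPTOR were the reverse. Across these 27 genes Spearman's rho was -0.16 and Pearson's r 0.05, and across all 3866 genes Spearman's rho was -0.0025. The points of each axis come from 1 comparison of the same libraries, and the PLC/PRF/5 axis from an evenly filled column. Values of 1 or more in both lines were found for 4 members, NRAS, BRAF, SPRED1 and SPRED2. The same count over all 3866 genes was not computed. In each line alone, 22.2% of HUH7 genes and 84.5% of PLC/PRF/5 genes were 1 or more. Without the joint share, the 4 members cannot show whether the lines agree. BRAF is among them through its shared HUH7 value. SPRED1 reached its PLC/PRF/5 median of 1.38 from rows on either side of 0.

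**Figure D4:**
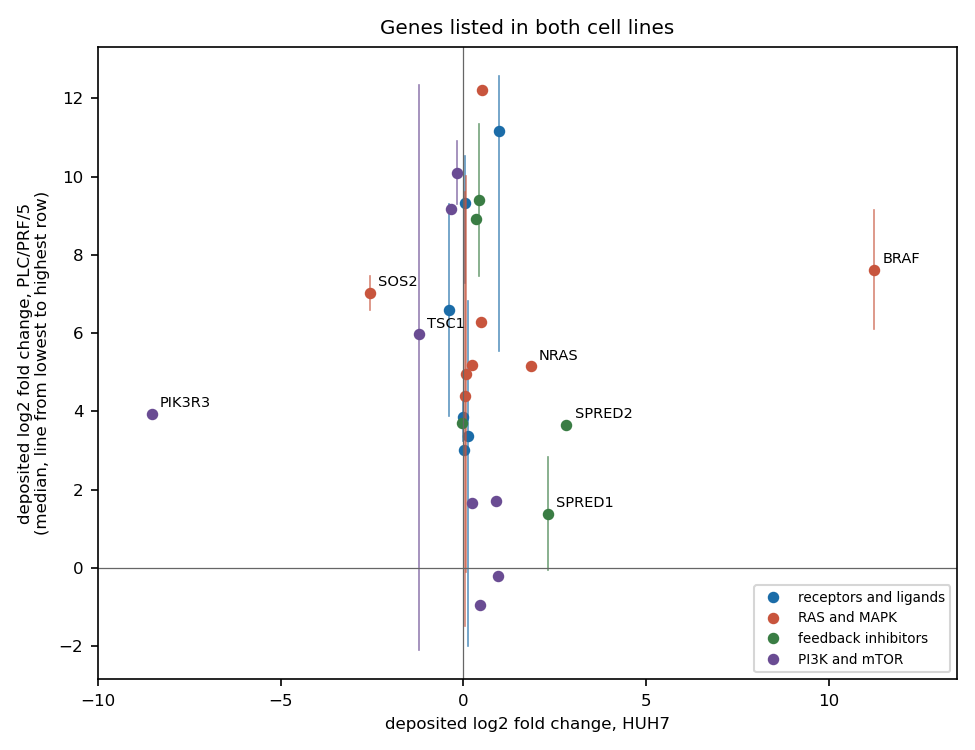
Deposited log2 fold change in HUH7 (x axis) against the gene median in PLC/PRF/5 (y axis) for the 27 members listed in both lines, coloured by role, with a vertical line from the lowest to the highest row. Members with a HUH7 size of 1 or more are named; most others stand in a narrow column near 0 on the HUH7 axis while their PLC/PRF/5 medians run from -0.96 to 12.21.

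The other genes of the pathway had shares of large values close to those of the HUH7 column. A wider list of 177 further genes, among them other ligands, receptors, adaptors, MAP kinases, phosphatases and mTOR regulators, had 116 genes listed for HUH7. Of these, 76 were positive (65.5% beside 60.8% of all genes) and 40 negative. In size, 27 were 1 or more (23.3% beside 22.2%) and 17 were -1 or less (14.7% beside 14.6%), with a median of 0.28. Values that 10 or more genes share were held by 21 of the 116 (18.1%) and by 2 of the 51 members (3.92%), against 12.6% of all HUH7 genes. Outside those, the largest positive values were those of DEPDC5, a brake on mTORC1 (3.99), the collagen receptor DDR2 (3.24), the Wnt co-receptor RYK (2.43) and the receptor adaptor GRB14 (2.39) in the authors' deposited table. The largest negative ones were those of MAP3K4, which acts above p38 and JNK (-2.14), the KIT ligand KITLG (-2.10), the adaptor SH2B3 (-1.81) and the ERK target ELK1 (-1.33) in the authors' deposited table. In PLC/PRF/5, 51 of the 177 were listed, 46 with a positive (90.2%, against 90.3% of all genes) and 5 with a negative gene median.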

How the data were processed

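m6A immunoprecipitates and inputs of 8 libraries were compared by the submitters; the log2 fold changes analysed are the authors' deposited values, 1 column per cell line, whose direction, scaling, aligner, peak caller and filters the sources used here do not give. The submitters' processing notes name FastQC 0.12.0 and build hg38. Sequencing depth is unknown, and no interval from counts can be given.

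Genes were matched by exact name; all 55 names are current symbols in the RefSeq table of GRCh38.p14, which also gave the gene coordinates. A PLC/PRF/5 gene with several rows was given their median. Counts used a minimum size of 1, and a HUH7 value was called shared when 10 or more genes held it to 6 decimals. Members, roles and the wider list were chosen with earlier results of these data known. All members were described; of the wider list, the 4 largest unshared HUH7 values per sign were named. Counts and medians were computed with Python 3.11.15 and pandas 2.3.3 and tested on simulated data. Alternatives were other minimum sizes, centring, leaving out shared values, other values per gene and other role groups.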

Additional observations from a re-analysis of the deposited data

Results flagged for a closer look

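For 9 of the 27 members listed in both lines (33.3%) every PLC/PRF/5 row had the sign opposite to the HUH7 value, against 36.9% of all 3866 genes listed in both, and the difference between the lines was not tested. Of all PLC/PRF/5 genes, 90.3% had a gene median above 0. Whether both columns use the same direction is not stated. Of these 9 members, 7 were negative in HUH7 and positive in PLC/PRF/5: PIK3R3 (-8.53 in HUH7), SOS2 (-2.56), MET (-0.39), RICTOR (-0.33), MTOR (-0.18), SPRY1 (-0.042) and EGFR (-0.013) in the authors' deposited table. The PIK3R3 value is a shared one, as described above. RPTOR (0.94 in HUH7) and PIK3CA (0.46) were positive in HUH7 and negative in their single PLC/PRF/5 row in the authors' deposited table.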

How the results depend on the processing

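Of 57 alternatives over 13 results, 39 stayed within 1.5 times the value reported and kept its sign, 13 moved by more, and 5 changed sign. With a minimum size of 0.5, 17 members were large and positive in HUH7 and 1 was large and negative in PLC/PRF/5. With a minimum of 2, 3 were large and negative in HUH7. The shares of all genes at these sizes were not computed by sign, so these counts describe no trait of the members. Without regard to sign, 49.0% of the listed members lay within 0.5 of 0 in HUH7, against 42.3% of all genes. With each column centred on its median, the HUH7 medians became -0.11 for receptors and ligands, 0.27 for RAS and MAPK, 0.19 for feedback inhibitors and 0.046 for PI3K and mTOR. In PLC/PRF/5 the centred medians were -0.23, 0.29, -1.75 and -2.63 in the same order, with 10 members at 1 or more and 12 at -1 or less. The centred shares over all PLC/PRF/5 genes were not computed, so these 2 counts describe no trait of the members. Counting every PLC/PRF/5 row gave 42 rows at 1 or more (84%, against 79.7% of all rows) and 3 at -1 or less (6%, against 7.31%). With each gene's row largest in size, the median of receptors and ligands was 8.06 in PLC/PRF/5. Moving IRS1 and IRS2 to RAS and MAPK turned the HUH7 median of PI3K and mTOR to -0.18, and receptors without the ligands, KLB and IGF2R had 0.23. Depth is unknown, and no library could be left out with 1 per group.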
